A study of Mus musculus with 10 samples.

Results

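The genes described here are 9 transcription factors that are used to mark a region of the gut, taken by symbol from the 35275 gene IDs of the counts: *Gata4*, *Gata5*, *Gata6*, *Pdx1*, *Cdx1*, *Cdx2*, *Onecut2*, *Hnf4a* and *Hnf4g*. RNA-seq libraries came from the proximal intestine of 5 mice without *Zip14* (*Slc39a14*), a zinc, iron and manganese importer, and of 5 WT mice, with 1 library per mouse. The paper describes the knockout as whole-body (WB-KO), the mice as coming from matings of heterozygotes with WT controls of the same strain, and both sexes as used. A deletion in enterocytes stands in the title of the series, whereas the labels of the samples give only KO or WT and an age of 8 to 10 weeks, shared by both groups, with no sex. The 4 Y-linked genes counted held 3 counts over all 10 libraries and never more than 1 in a library, so that none of the libraries showed the RNA of a male mouse. No further allele or agent is named for either group, and the group is called WB-KO here.

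The gut tube is divided along its length by transcription factors that stay on in the adult epithelium. GATA factors are zinc finger proteins; *Gata4* is on in the duodenum and jejunum and off in the distal ileum, where its loss from the jejunum is known to let ileal genes appear. *Pdx1* belongs to the duodenum and pancreas, the caudal-type homeobox factors *Cdx1* and *Cdx2* to the whole intestine with more toward the hind part, and the nuclear receptors *Hnf4a* and *Hnf4g* to enterocytes, where they act on lipid genes.

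The regions were read first from markers of position. In WT libraries, *Lct* (lactase) had 3363 to 3783 CPM (counts scaled to library size with TMM factors) and *Fabp6*, the ileal bile acid binding protein, had 0.0638 to 1.74 CPM. In the libraries labelled WB-KO, *Lct* had 0.315 to 702 CPM and *Fabp6* 2307 to 9058 CPM. All 10 libraries are labelled proximal intestine. Each library labelled WB-KO thus had more of the ileal marker and less of the proximal marker than any WT library. Whether the genotype or the place where a segment was cut goes with these levels cannot be told apart from the counts.

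The libraries held 16729787 to 20819678 counts. *Slc39a14* itself had 260.4 ± 62.5 CPM in WT and 102 ± 32.9 CPM in WB-KO libraries (SD over 5 mice each), with a log2 fold change of -1.35 (SE 0.22, adjusted p = 0.00184, edgeR's quasi-likelihood test). Its libraries did not overlap between the groups, and WB-KO replicate 1 was the highest of the WB-KO libraries with 160.1 CPM. The counts cover the whole gene and do not show which exons were removed.

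GATA, CDX and HNF4 proteins bind short DNA motifs, and promoters of genes known to depend on them show what these motifs look like. RefSeq promoter windows of 300 bases (GRCm38.p6, 250 before and 50 after a start) were searched on both strands. The GATA letters AGATAA or TGATAA stood in 18.6% of all 32851 windows, and in those of 5 of 9 proximal marker genes with a window and 2 of 7 ileal marker genes. CDX letters, TTTATNA or TTTATNG, both of which can overlap a TATA box, stood in 22.5% of all windows. They stood in 3 of 9 proximal and 2 of 7 ileal ones, and in 2 of 4 of a list of CDX targets. For HNF4 the letters CAAAGNNCA stood in 6.36% of all windows and in 4 of 7 of a list of HNF4 targets. Of the 9 factors, 4 had a window (*Gata5*, *Pdx1*, *Cdx2* and *Hnf4a*, which had more than 1), and only *Hnf4a* held the GATA letters; none held the CDX or HNF4 letters. A match describes the letters and is not a measured binding site. The stretches below, each 30 bases in the direction of the gene with the matched letters in capitals, are shown because they belong to genes that the values further on return to.
*Lct*, GATA: tctgatTTATCTgtcctAGATAAcccagtt
*Rbp2*, GATA: cctttgactctaTTATCTttatatacctgg
*Hnf4a*, GATA: gaagaatcaataAGATAAccgggcggggtg
*Sis*, CDX: gaaagtgCAATAAAacTTTATGAgtagtca
*Treh*, HNF4: cctcatagccTGGACTTTGgctgacctggg
*Apob*, HNF4: gcccgggccgTGCCCTTTGgacctttggca

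These lie at chr1:128328396-128328425 on the minus strand (*Lct*, 107 to 78 bases before the start), chr9:98490482-98490511 on the plus strand (*Rbp2*, 55 to 26 bases before), chr2:163506793-163506822 on the plus strand (*Hnf4a*, 64 to 35 bases before a start that RefSeq gives, across the first base of the gene in GENCODE M21), chr3:72967893-72967922 on the minus strand (*Sis*, 59 to 30 bases before), chr9:44673152-44673181 on the plus strand (*Treh*, 81 to 52 bases before) and chr12:7977564-7977593 on the plus strand (*Apob*, 113 to 84 bases before).

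Between the groups, 2 of the 9 factors were higher in WB-KO mice (*Cdx1* and *Cdx2*), 4 were lower (*Gata4*, *Gata6*, *Onecut2* and *Hnf4g*), *Gata5* and *Hnf4a* did not pass the test, and *Pdx1* had too few counts for it. A factor was called when its p from edgeR's quasi-likelihood test, adjusted over all 15610 genes tested, was under 0.05. By the same rule 29.9% of all genes tested were called, 16.0% higher and 13.9% lower (53.5% of the calls were higher, and 69.4% when scaled by library size alone). The libraries of WT and WB-KO mice were fully apart for 6 of the 9 factors and for 21.1% of all genes tested. The median log2 fold change was -0.55 over the 8 factors tested and 0.03 over all genes. In whole tissue, fewer cells of a type and less RNA per cell cannot be told apart.

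**Figure D1:**
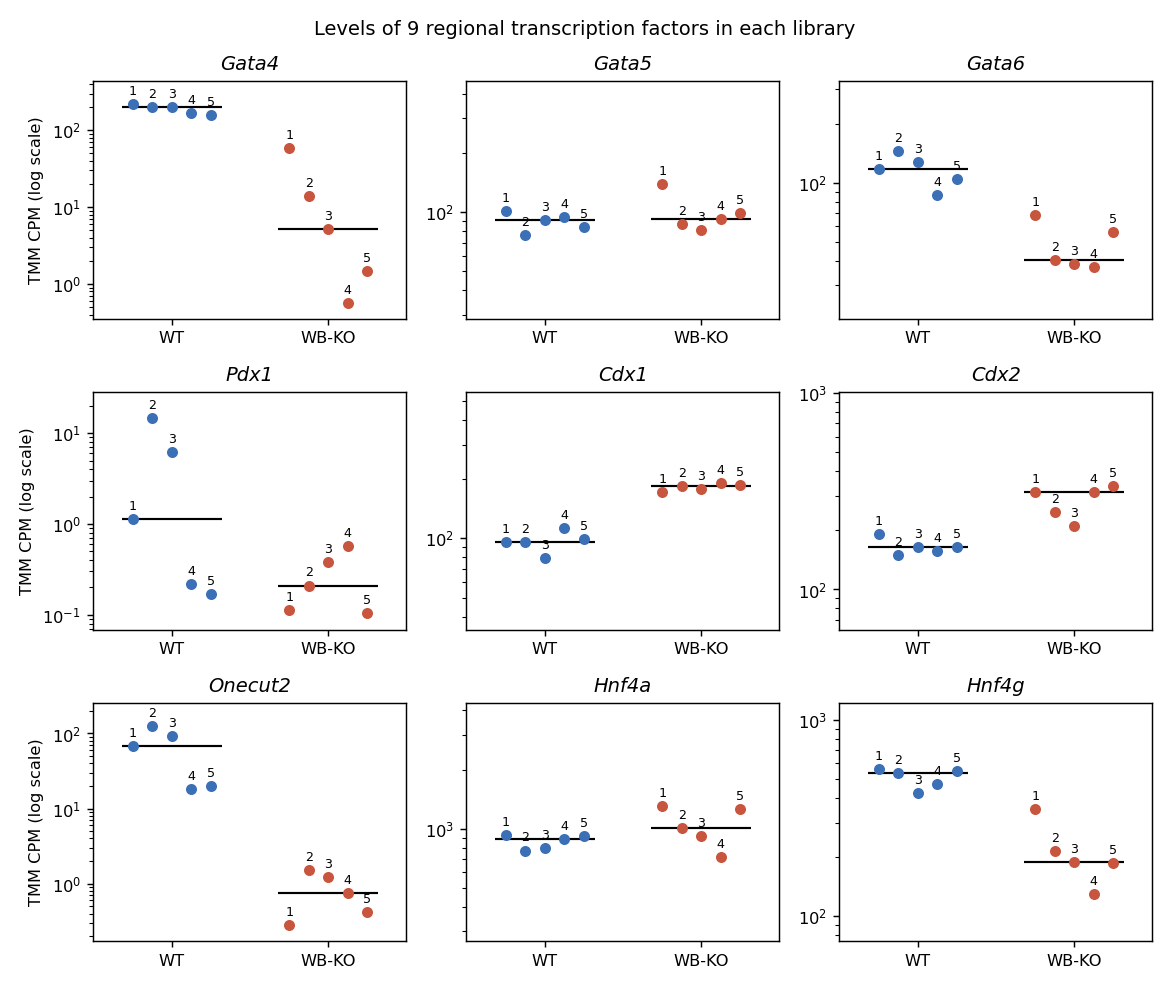
TMM CPM of each factor (vertical axis, log scale, its range set per panel) in WT (blue) and WB-KO (red) libraries, with replicate numbers beside the points and a line at each group's median. The groups do not overlap for *Gata4*, *Gata6*, *Onecut2*, *Hnf4g*, *Cdx1* and *Cdx2*, and they overlap for *Gata5*, *Pdx1* and *Hnf4a*.

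*Gata4* (ENSMUSG00000021944, chromosome 14 from 63198922 to 63271692, minus strand) had the widest spread among WB-KO mice relative to its mean. It had 217, 201, 200.1, 166 and 160.3 CPM in WT replicates 1 to 5, and 59.4, 13.8, 5.24, 0.572 and 1.47 CPM in WB-KO replicates 1 to 5. Every WB-KO value lay below the lowest WT value, and replicate 1 stood far above the other WB-KO libraries, while replicates 4 and 5 held only 12 and 28 counts. The group means were 189 ± 24.4 and 16.1 ± 24.8 CPM (SD, n = 5 each). The log2 fold change was -3.56 (SE 0.95, 95% confidence interval -5.64 to -1.47, adjusted p = 0.0177, edgeR). Without WB-KO replicate 1 it was -5.17 (adjusted p = 8.04e-04), and the difference between the groups' mean log2 CPM over all libraries was -5.11.

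*Gata6*, which is expressed along the whole small intestine (ENSMUSG00000005836, chromosome 18 from 11052064 to 11085635, plus strand), fell less. In WT replicates 1 to 5 it had 117, 144, 128, 86.8 and 105 CPM, and in WB-KO replicates 68.8, 40.5, 38.5, 37.1 and 56.3 CPM. The groups did not overlap, and WB-KO replicate 1 was again the highest of its group. The log2 fold change was -1.27 (SE 0.20, adjusted p = 0.00146, edgeR). An antisense gene, *1010001N08Rik*, overlaps it, and without knowledge of the strand its reads cannot be told apart from those of *Gata6*.

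*Gata5*, a GATA factor that is likewise on in gut epithelium (ENSMUSG00000015627, chromosome 2 from 180325133 to 180334699, minus strand), did not pass the test. WT libraries had 102, 76.8, 90.9, 94.8 and 84.1 CPM, and WB-KO libraries 139, 86.8, 81.0, 92.6 and 98.8 CPM. Apart from WB-KO replicate 1, every WB-KO value lay within the range of the WT libraries. The log2 fold change of 0.15 (SE 0.15, adjusted p = 0.449, edgeR) has a 95% interval of -0.17 to 0.47, so that a change of the size seen for *Gata6* lies outside it. Its direction turned without WB-KO replicate 1 (-0.00089), with scaling to the summed epithelial markers (-0.48, adjusted p = 0.0192, edgeR, which is a call lower) or to their geometric mean (-0.17) and with the epithelial score as a covariate (-0.070). The gene *Gata5os* overlaps it on the other strand.

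Ratios of 2 factors within a library need no normalization. The log2 ratio of *Gata4* to *Gata6* counts was 0.89, 0.48, 0.65, 0.94 and 0.61 in WT libraries and -0.21, -1.55, -2.87, -5.96 and -5.24 in WB-KO libraries, a difference of the means of -3.88 (adjusted p = 0.0119, exact permutation test, 2-sided, adjusted over 6 ratios). That of *Gata5* to *Gata6* was -0.91 to 0.13 in WT and 0.81 to 1.32 in WB-KO libraries, a difference of 1.42 (adjusted p = 0.0119, exact permutation test). The groups did not overlap in either ratio. Compared by medians, the differences were -3.52 and 1.39, and neither passed (adjusted p = 0.0571 each, exact permutation test). For the means, the unadjusted p of 0.00794 behind both ratios is the smallest that 5 libraries against 5 can give.

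Per kilobase of exons, *Gata4* made up 49.6% to 53.1% of the summed level of the 3 GATA factors in WT libraries and 22.3%, 9.78%, 4.19%, 0.430% and 0.961% in WB-KO replicates 1 to 5. *Gata5* made up 24.1% to 34.1% in WT and 62.2% to 82.9% in WB-KO libraries. The share of *Gata6* overlapped between them, 15.7% to 22.8% and 15.5% to 22.1%. The sum of the 3 was 82.8 to 104.6 CPM per kilobase in WT and 31.98 to 68.2 in WB-KO libraries, so that the larger share of *Gata5* stood in a smaller total. These shares and sums rest on the length of all exons. With the longest transcript as length, *Gata6* had a higher WT mean (30.7 CPM per kilobase) than *Gata5* (27.4).

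**Figure D2:**
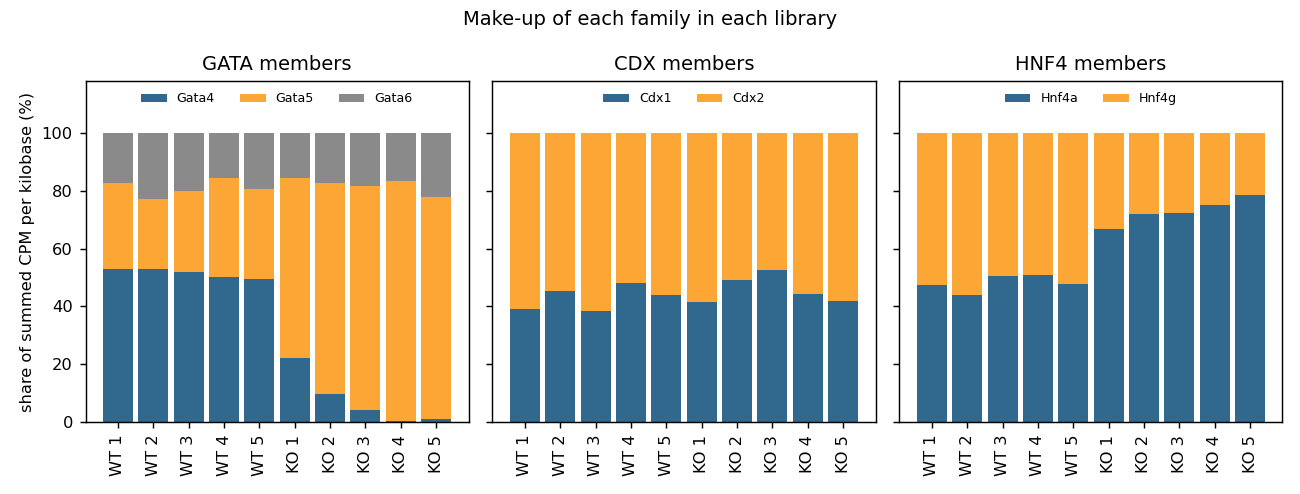
Share of each factor (vertical axis, %) in the summed CPM per kilobase of the GATA, CDX and HNF4 factors, as stacked bars for each library (KO stands for WB-KO). *Gata4* takes 49.6% to 53.1% in WT and 0.430% to 22.3% in WB-KO libraries, the CDX make-up overlaps between the groups, and *Hnf4a* takes a larger share in WB-KO libraries.

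Among the homeobox factors, *Pdx1* (ENSMUSG00000029644, chromosome 5 from 147269959 to 147275848, plus strand) was high in only some WT mice. It had 1.142, 14.7, 6.24, 0.220 and 0.168 CPM in WT replicates 1 to 5, which are 22, 231, 107, 4 and 3 counts. The WB-KO replicates had 0.113, 0.210, 0.378, 0.572 and 0.105 CPM, from 2, 4, 7, 12 and 2 counts. WT replicates 1 to 3 were above all WB-KO libraries, and WT replicates 4 and 5 lay among them, at a depth where a count of 0 allows up to 3. Between the groups, mean log2 CPM differed by -2.21 (p = 0.103, exact permutation test, 2-sided), and it was -2.79 (p = 0.0397) without WT replicate 4 and -2.85 (p = 0.0317) without WT replicate 5 by the same exact test. Without WT replicate 2 or 3, the highest ones, it was -1.41 (p = 0.183) or -1.72 (p = 0.167) by that exact test. DESeq2, which kept the gene, gave -4.05 with an adjusted p of 0.00264, and edgeR without a filter gave -4.00 with 0.0238. The call for *Pdx1* therefore depended on the test.

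*Cdx1* (ENSMUSG00000024619, chromosome 18 from 61018862 to 61036199, minus strand) had the smallest SD relative to its mean of the 9 among WB-KO mice. It had 95.4, 96.1, 79.5, 113 and 99.7 CPM in WT replicates and 172, 184, 179, 191 and 187 CPM in WB-KO replicates. The lowest WB-KO value lay well above the highest WT value. The means were 96.8 ± 12.1 and 183 ± 7.43 CPM (SD, n = 5 each), for a log2 fold change of 0.92 (SE 0.10, adjusted p = 2.43e-04, edgeR).

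*Cdx2*, the factor that keeps intestinal identity in the adult epithelium (ENSMUSG00000029646, chromosome 5 from 147300805 to 147307270, minus strand), is a neighbour of *Pdx1*. WT replicates had 191, 149.8, 165, 157 and 164 CPM, and WB-KO replicates 314, 247, 209.9, 313 and 336 CPM. The groups did not overlap, with WB-KO replicate 3 the nearest to the WT libraries. Its log2 fold change was 0.78 (SE 0.14, adjusted p = 0.00273, edgeR), and 0.14 (adjusted p = 0.443) with scaling to the summed epithelial markers, where *Cdx1* was still called at 0.29 (adjusted p = 0.0402). The log2 ratio of *Cdx1* to *Cdx2* was -1.05 to -0.47 in WT and -0.87 to -0.23 in WB-KO libraries, a difference of 0.16 (adjusted p = 0.349, exact permutation test). *Pdx1* against *Cdx2* differed by -3.22 (adjusted p = 0.0571, exact permutation test, with overlap). The summed CDX level was 118.2 to 139 CPM per kilobase in WT and 195 to 255 in WB-KO libraries.

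*Onecut2* (a cut homeobox factor of duodenum, liver and pancreas; ENSMUSG00000045991, chromosome 18 from 64340020 to 64400987, plus strand) had the lowest fold change of the 8 tested. WT replicates had 68.1, 124, 91.6, 18.1 and 20.2 CPM, and WB-KO replicates 0.282, 1.52, 1.24, 0.762 and 0.420 CPM, from 5, 29, 23, 16 and 8 counts. The highest WB-KO library had 1.52 CPM against 18.1 CPM in the lowest WT library, and within WT replicates 4 and 5 were far below the other 3. The means were 64.4 ± 45.9 and 0.845 ± 0.529 CPM (SD, n = 5 each). The log2 fold change was -6.24 (SE 0.69, 95% interval -7.75 to -4.72, adjusted p = 2.86e-04, edgeR). Its log2 ratio to *Hnf4a* was -5.61 to -2.64 in WT and -12.04 to -9.34 in WB-KO libraries, a difference of -6.30 (adjusted p = 0.0119, exact permutation test; 0.0571 by medians).

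*Hnf4a* (ENSMUSG00000017950, chromosome 2 from 163506808 to 163572910, plus strand) did not pass the test. It had 925, 774, 795, 890.0 and 921 CPM in WT replicates and 1305, 1005, 914, 715 and 1255 CPM in WB-KO replicates. WB-KO replicates 1, 2 and 5 were above all WT libraries and replicate 4 was below them all. The log2 fold change was 0.27 (SE 0.17, 95% interval -0.10 to 0.64, adjusted p = 0.234, edgeR), and it turned to -0.38 (adjusted p = 0.0447) with scaling to the summed epithelial markers, to -0.065 with their geometric mean and to -0.32 with the epithelial score as a covariate.

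*Hnf4g*, its paralogue, which acts beside it in enterocytes (ENSMUSG00000017688, chromosome 3 from 3508030 to 3658052, plus strand), was lower. WT replicates had 561, 538, 426, 471 and 546 CPM, and WB-KO replicates 352, 214, 189, 129.5 and 187 CPM. The groups did not overlap, and WB-KO replicate 1 was the nearest to the WT libraries. The log2 fold change was -1.25 (SE 0.23, adjusted p = 0.00318, edgeR). The log2 ratio of *Hnf4g* to *Hnf4a* was -0.92 to -0.52 in WT and -2.75 to -1.89 in WB-KO libraries, a difference of -1.56 (adjusted p = 0.0119, exact permutation test; 0.0571 by medians). Per kilobase, *Hnf4a* made up 43.9% to 50.7% of the pair in WT and 66.9% to 78.6% in WB-KO libraries.

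**Figure D3:**
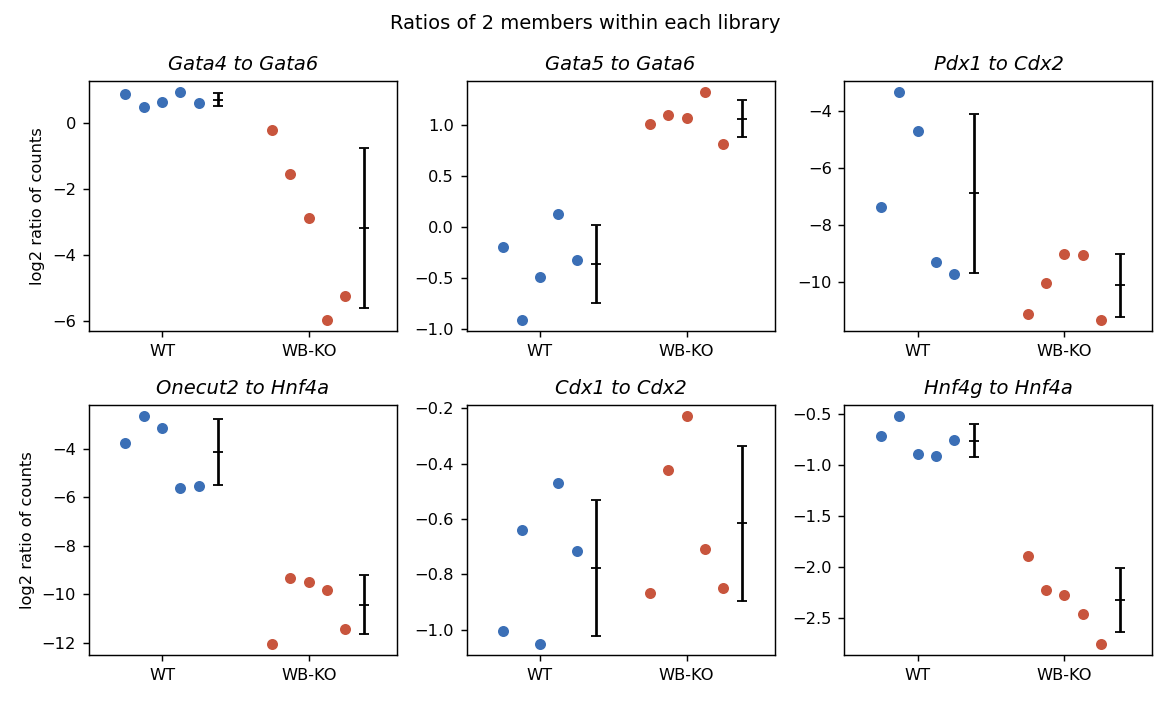
Log2 ratio of the counts of 2 factors within each library (vertical axis, 0.5 added to each count) for WT (blue) and WB-KO (red), with the mean ± SD at the right of each group. The groups overlap for *Pdx1* to *Cdx2* and for *Cdx1* to *Cdx2*, and the other 4 ratios do not overlap.

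The RNA of markers of some other cell types also differed between the groups. Of 10 smooth muscle markers, 9 were higher in WB-KO mice, against 16.0% of all genes tested. Their list had a summed level of 1629 to 2674 CPM in WT and 3600 to 10596 CPM in WB-KO libraries, highest in replicate 4. All 6 markers of neurons and glia were higher, with 12.5 to 21.9 CPM in WT and 23.8 to 90.5 CPM in WB-KO libraries in sum. Of 14 epithelial markers, 5 were higher, *Krt8*, *Krt18* and *Krt19* among them, and 9 did not pass the test. In sum they had 7329 to 9164 CPM in WT and 11660 to 15304 CPM in WB-KO libraries. All members of these 3 lists passed the filter, so none was at 0. Of 6 fibroblast markers, 2 were higher and 4 were not called, and of 4 endothelial markers, 1 was lower and 3 were not called. With the smooth muscle score as a covariate, none of the 8 factors tested and 17 of the 15610 genes were called by edgeR, and with the epithelial score 1 factor (*Cdx1*) was higher and 2 (*Onecut2* and *Hnf4g*) were lower. Under the smooth muscle score the log2 fold changes were -0.47 for *Gata4*, -0.63 for *Gata6* and -0.45 for *Hnf4g*, nearer to 0 than without it, and -4.56 for *Onecut2*, 0.82 for *Cdx1* and 0.75 for *Cdx2*. Under the epithelial score those no longer called were -4.42 for *Gata4*, -1.37 for *Gata6* and 0.65 for *Cdx2*. Both scores separate the groups without overlap, and the part of muscle or epithelium in the calls was not tested.

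The order of the levels was taken per kilobase of exons, the scale on which genes can be compared. In WT mice it ran *Hnf4g* (mean 193 CPM per kilobase), *Hnf4a* (178), *Cdx2* (73.1), *Cdx1* (55.3), *Gata4* (48.4), *Gata5* (27.4), *Gata6* (17.8), *Onecut2* (3.97) and *Pdx1* (2.09). The libraries of neighbours overlapped for *Hnf4g* and *Hnf4a*, *Cdx1* and *Gata4*, and *Onecut2* and *Pdx1*. In WB-KO mice it ran *Hnf4a* (215), *Cdx2* (126), *Cdx1* (104), *Hnf4g* (81.5), *Gata5* (30.4), *Gata6* (7.41), *Gata4* (4.12), *Pdx1* (0.128) and *Onecut2* (0.0521). There, only *Hnf4g* and *Gata5*, and *Gata5* and *Gata6*, were neighbours without overlap, and by the group means *Gata4* was the last of the GATA factors, where it was the first in WT. In WB-KO replicate 1 the order of *Gata4* and *Gata6* depended on the length used, with 15.2 against 10.6 CPM per kilobase of exons and 17.5 against 18.2 per kilobase of the longest transcript. By WT means per kilobase of the longest transcript, *Gata6* (30.7) stood above *Gata5* (27.4) and *Gata4* (55.6) above *Cdx1* (55.3). The WT libraries of both pairs then overlapped.

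The order of the libraries showed 2 recurring patterns. Within WT, *Pdx1*, *Onecut2* and *Gata6* were highest in replicates 2, 3 and 1, in that order, and lowest in replicates 4 and 5. *Apoa4*, an apolipoprotein of the upper intestine, kept the same order, with 9063, 8501 and 5648 CPM in replicates 2, 3 and 1 and 3865 and 3390.2 CPM in replicates 5 and 4. *Ada*, a purine enzyme of the duodenum, had 606 to 722 CPM in replicates 4 and 5 and 1205 to 1820.3 CPM in the other 3. *Nts*, the ileal hormone neurotensin, ran the other way, with 62.6 and 74.5 CPM in WT replicates 4 and 5 and 7.21 to 29.4 CPM in the other 3, and it did not pass the test between the groups (log2 fold change 0.97, adjusted p = 0.204, edgeR). Over the whole lists, 6 of 10 proximal markers had their lowest WT values in replicates 4 and 5, and 4 of 8 ileal markers their highest. *Lct* went against this, with 3641 and 3783 CPM in WT replicates 4 and 5 and 3363 to 3533 CPM in the other 3, and so did *Npc1l1*, a sterol transporter, which was lowest in WT replicates 2 and 3 (1333 and 1313 CPM). *Gata4* was also lowest in WT replicates 4 and 5, with its highest value in replicate 1. *Cdx1*, *Cdx2* and the HNF4 pair did not follow this order, and WT replicate 4 had the most *Cdx1*.

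Within WB-KO, replicate 1 was the nearest to the WT mean in 4 of the 6 factors called (*Gata4*, *Gata6*, *Cdx1* and *Hnf4g*), and replicate 4 was the farthest in the same 4. The other 2 went against this: *Onecut2* had its lowest value in replicate 1, and *Cdx2* was nearest to WT in replicate 3 and farthest in replicate 5. For *Cdx1* the WB-KO values lay close together, at 172 to 191 CPM, so that its nearest and farthest libraries differed little. How many of all genes tested place replicates 1 and 4 in this way was not counted. *Lct* ranked the WB-KO libraries much as *Gata4* did, with 702, 281, 3.08, 2.81 and 0.315 CPM in WB-KO replicates 1 to 5; it was below every WT library in each, but with this spread its log2 fold change of -4.16 had an adjusted p of 0.0632 (edgeR). Replicate 4 also had the highest sum of smooth muscle markers.

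**Figure D4:**
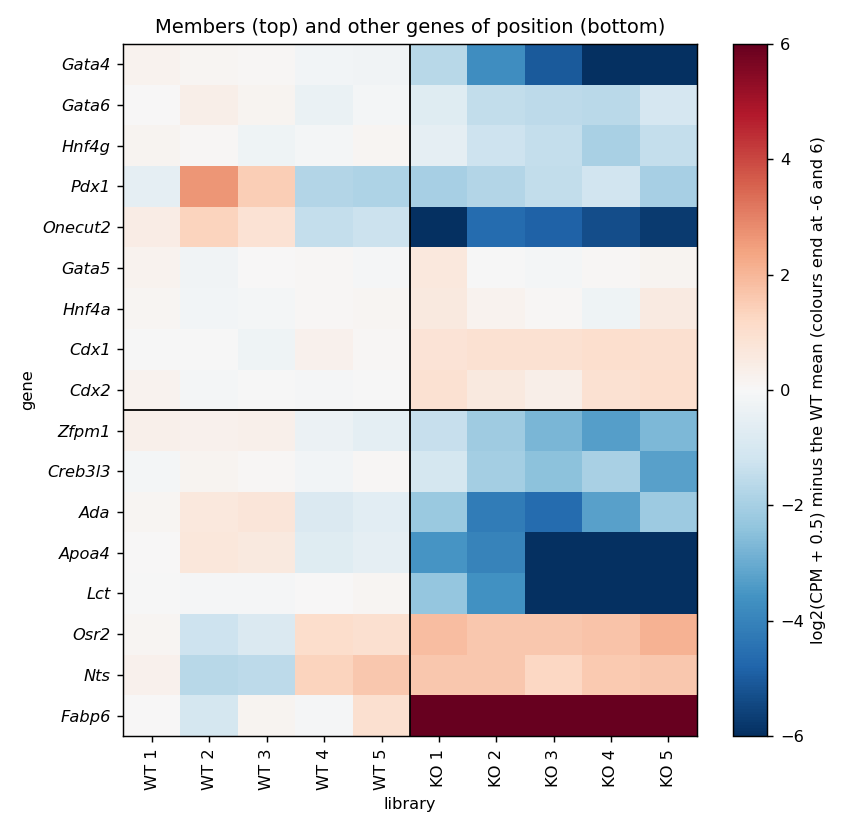
log2(CPM + 0.5) minus the WT mean for the 9 factors (above the line) and 8 other genes of position (below), in each library (columns, KO for WB-KO), with blue for lower and red for higher; colours end at -6 and 6. WT replicates 2 and 3 are highest for *Pdx1* and *Onecut2* and lowest for *Osr2* and *Nts*, and WB-KO replicate 1 is the palest of its group for *Gata4*.

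Of the 9 factors, 4 were called with a log2 fold change beyond 1 in either direction, as were 11.1% of all genes tested. For these 4, the most similar profiles were sought among all genes tested, by the root mean square of the difference in log2 CPM over the 10 libraries, each gene centred on its own mean. This includes the difference between the groups, so it is a description. The nearest to *Gata4* were *Asah2* (neutral ceramidase, 0.776), *Dnase1* (0.882) and *Apoa4* (0.891). For *Gata6* they were *Sec23a* (a coat protein of ER export, 0.119), *Crot* (0.124) and *P4hb* (0.134). The measure is not scaled to a gene's own spread, so its size cannot be compared between factors. The nearest to *Onecut2* were *Reg1* (0.621), *Cym* (0.829) and *Bbox1* (0.891), and to *Hnf4g* the amino acid transporter *Slc43a2* (0.144), *Epha1* (0.154) and *Apob* (0.159).

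Of 39 other transcription factors listed for position and enterocyte identity, 31 passed the filter, 6 were higher, 5 were lower and 20 were not called, with a median log2 fold change of 0.11, against 29.9% called over all genes. *Zfpm1* (FOG1, a cofactor that binds GATA proteins) had 121, 117, 121, 76.1 and 65.0 CPM in WT and 37.2, 21.7, 14.0, 9.25 and 14.4 CPM in WB-KO replicates, a log2 fold change of -2.37 (SE 0.35, adjusted p = 0.00117, edgeR). As with *Gata4*, WB-KO replicate 1 was the highest of its group and replicate 4 the lowest. *Creb3l3*, a membrane-bound activator of lipid genes, fell from 604 ± 56.4 to 152 ± 83.5 CPM (SD, n = 5 each; log2 fold change -1.99, adjusted p = 0.00182, edgeR).

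Of 7 nuclear receptors listed, 1 was higher, 3 were lower and 3 were not called, with a median log2 fold change of -0.07, against 29.9% called over all genes. *Nr1h4* (FXR, the bile acid receptor) had 26.8 to 30.7 CPM in WT and 72.0 to 164 CPM in WB-KO libraries, a log2 fold change of 2.02 (SE 0.19, adjusted p = 1.36e-04, edgeR). *Ppara*, the fatty acid receptor, was lower by a log2 fold change of -1.12, *Vdr*, the vitamin D receptor, by -0.46 and *Nr1i2*, the xenobiotic receptor PXR, by -0.43. For none of these 4 did WT and WB-KO values overlap.

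Among the higher factors was *Osr2*, a zinc finger factor. *Osr2* had 35.8, 13.7, 18.1, 69.1 and 64.7 CPM in WT and 119, 102, 104, 109.9 and 141 CPM in WB-KO replicates (log2 fold change 1.51, SE 0.40, adjusted p = 0.0167, edgeR). WT replicates 4 and 5 were the nearest to the WB-KO libraries, as they were for *Pdx1* and *Onecut2* in the other direction. The forkhead factors *Foxa1* (1.5) and *Foxa3* (0.81) and the epithelial factor *Elf3* (0.55) were also higher. *Isx*, an intestinal homeobox gene, did not pass the test (0.44, adjusted p = 0.0615).

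**Figure D5:**
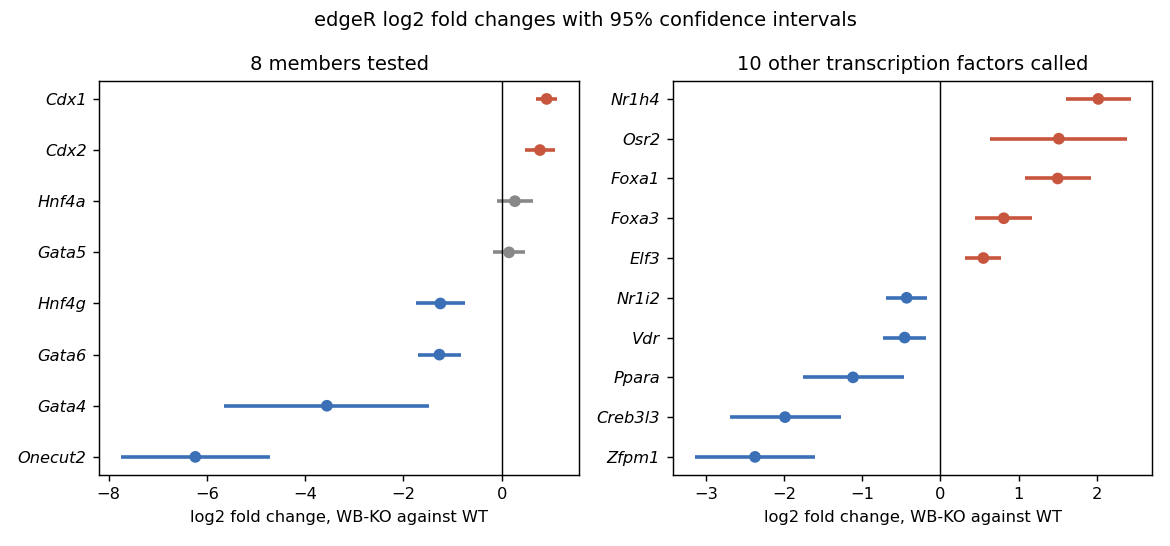
Fold change (log2, WB-KO against WT) with its 95% confidence interval by edgeR (horizontal axis) for the 8 factors tested (left) and 10 other transcription factors called (right), with red for higher, blue for lower and grey for not called. *Onecut2* (-6.24) and *Gata4* (-3.56) lie farthest to the left and have the widest intervals.

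Markers of position and genes known to depend on HNF4 or CDX were counted from lists. Of 10 proximal markers, 7 were lower and none higher, with a median log2 fold change of -3.01. Of 8 ileal markers, 5 were higher and none lower, with a median of 1.90. Over all genes tested, 16.0% were higher and 13.9% lower. *Rbp2*, the retinol binding protein of the villus whose promoter stretch is given above, had 994 to 2605 CPM in WT and 131 to 343 CPM in WB-KO libraries (-2.85, adjusted p = 4.99e-04, edgeR). *Fabp1*, the liver-type fatty acid binding protein, fell from 2199 ± 777 to 50.6 ± 46.2 CPM (SD, n = 5 each; -5.44, adjusted p = 9.30e-04).

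Of 8 HNF4 targets, 6 were lower and 2 were not called, with a median of -1.93, against 13.9% lower over all genes tested. *Treh*, the brush border trehalase, had a log2 fold change of -3.53 (adjusted p = 0.00267, edgeR) and *Apob*, the structural protein of chylomicrons, one of -1.07 (adjusted p = 0.00625). *Apoa1* had 6192 to 6820 CPM in WT and 3514 to 6802 CPM in WB-KO libraries and was not called (-0.36, adjusted p = 0.211).

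Of 6 CDX targets, 1 was higher, 1 was lower and 4 were not called, with a median of -0.43, against 29.9% called over all genes. *Muc2*, the goblet cell mucin, had 1038 to 2079 CPM in WT and 2280.2 to 5182 CPM in WB-KO libraries (1.31, SE 0.26, adjusted p = 0.00486, edgeR). Of 4 other goblet cell markers, 2 were higher, *Tff3* (0.66) and *Clca1* (1.69), and 2 were not called, with a sum of 9996 to 14806 CPM in WT and 13128 to 19043 CPM in WB-KO libraries; their part in the level of *Muc2* was not tested. *Sis*, sucrase-isomaltase, whose stretch holds the CDX letters on both strands, had 3485 to 5846 CPM in WT and 710.1 to 2229 CPM in WB-KO libraries (-1.87, SE 0.31, adjusted p = 0.00192). *Cdh17*, the intestinal cadherin, was not called (-0.41, adjusted p = 0.0942). *Lct*, which is also counted among the proximal markers, was not called either (-4.16, adjusted p = 0.0632, edgeR). Every WB-KO library had less *Lct* than any WT library.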

How the data were processed

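The authors deposited, per mouse, raw counts of reads for 35275 Ensembl gene IDs, as whole numbers without normalization. The submitters' processing notes name FastQC 0.11.9, Trimmomatic, HISAT2 2.0.4, SAMtools 1.3.1, DESeq2 1.14.1 and the builds GRCm38 and mm10; the labels name a SMARTER mRNA-Seq kit. The counter, annotation and strand setting were not given in the sources used here. GENCODE M21 gave a symbol for 34490 IDs, positions and exon lengths. The members, lists and tests were chosen with earlier results of these data known.

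In R 4.3.3, edgeR 4.0.16 was run with TMM factors and its quasi-likelihood test. Its filter (filterByExpr, with 10 as minimum count and 15 as minimum total) left 15610 genes, over which p was adjusted by Benjamini-Hochberg, and 0.05 was the threshold. CPM use the TMM-scaled library size. *Pdx1* and the ratios (0.5 added to each count) were tested by an exact permutation test; log2 CPM has a prior count of 2, which shrinks low genes. A count of 0 allows up to 3 counts at 95% confidence, which covers counting error only. The tests were checked on simulated counts.

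Alternatives were RLE, library size and epithelial scaling, DESeq2 1.42.0, other filters, robust dispersion, epithelial and smooth muscle scores, a replicate block and leaving out each library. The text names all 9 factors, *Slc39a14*, at most the 3 most abundant genes of a list, the 5 highest and 5 lowest called other factors and the 3 nearest profiles of each factor called beyond a log2 fold change of 1; *Elf3*, *Ada*, *Nts*, *Fabp1*, *Rbp2*, *Treh*, *Tff3*, *Cdh17* and *Krt18* were chosen after their values were seen, as were the genes of the promoter stretches. Some listed transcription factors are counted in the totals and not reported here by name.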

Additional observations from a re-analysis of the deposited data

Results flagged for a closer look

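In 2 of 52 groups of 5 libraries, 1 library lay farther from the rest of its group than the 95% limit of Dixon's test allows, which chance gives in about 1 of 20 groups. *Gata4* had 59.4 CPM in WB-KO replicate 1, next to 13.8 CPM in the second highest WB-KO library. *Nr1i2* had 169 CPM in WT replicate 2, next to 129.7 CPM in the second highest WT library.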

How the results depend on the processing

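RLE normalization, library size scaling, DESeq2, either other filter (none, or a mean count of 10 or more) and robust dispersion kept direction and call for the 8 factors tested. Library size scaling gave 69.4% higher calls over all genes (53.5% with TMM), as it moved the median gene by 0.12 on the log2 scale; scaling to the summed epithelial markers (-0.64) gave 5.06% and to their geometric mean, added after seeing the data (-0.32), 14.5%. The counts of factors called higher (2) and lower (4) became 1 and 6 with summed epithelial scaling (*Gata5* and *Hnf4a* newly lower, *Cdx2* no longer called), 1 and 2 with the epithelial score, and 0 and 0 with the smooth muscle score (17 genes called in all). They were 2 and 5 with DESeq2 or either other filter, which kept *Pdx1* and called it lower. With a mean count of 10 or more, *Pdx1* was -3.97 (adjusted p = 0.0259, edgeR). For the other transcription factors, 6 higher and 5 lower became 2 and 0 with the epithelial score and 0 and 0 with the smooth muscle score; lower ones became 16 with summed and 9 with geometric mean epithelial scaling. *Gata5* reversed to -0.48, -0.17 and -0.070, and *Hnf4a* to -0.38, -0.065 and -0.32, with summed scaling, geometric mean scaling and the epithelial score; *Gata5* was -0.00089 without WB-KO replicate 1 and up to 0.209 without another library. The cause was not tested.

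With libraries left out in turn, 2 factors were higher and 4 to 5 lower, 6 to 9 other transcription factors were higher and 5 lower, and the differences of the log2 ratios were -4.62 to -3.18 (*Gata4* to *Gata6*), 1.28 to 1.54 (*Gata5* to *Gata6*), -3.93 to -2.33 (*Pdx1* to *Cdx2*, adjusted p = 0.0286 to 0.114, exact permutation test, under 0.05 only without WT replicate 4 or 5), -6.67 to -5.90 (*Onecut2* to *Hnf4a*), 0.06 to 0.24 (*Cdx1* to *Cdx2*) and -1.66 to -1.45 (*Hnf4g* to *Hnf4a*). Differences of medians were -3.52, 1.39, -6.07 and -1.52 for the 4 ratios that had passed, with an adjusted p of 0.0571 each (exact permutation test). With the longest transcript as length, 4 places of the WT order changed, as *Gata4* moved above *Cdx1* and *Gata6* above *Gata5*.

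The replicate block kept 2 factors higher and 4 lower, with *Gata4* at -4.98 (adjusted p = 0.0109, edgeR), and 6 and 4 other transcription factors. Under it the ratios keep their differences (-3.88, 1.42, -6.30 and -1.56), but an exact sign-flip test of 5 pairs cannot go below 0.0625, and the adjusted p of 0.0938 says nothing about stability. Same-numbered libraries did not deviate together (r from -0.167 to 0.177, over 0.1 in 1 of 5 pairs), so the numbers were not taken as pairs; only 1 of 5 WT libraries correlated best with its own number.

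A Y-linked score as covariate was not run, as the 4 genes held 3 counts over all libraries. Depth limits *Pdx1* and the WB-KO values of *Onecut2* and *Gata4*.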

Other observations

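Markers of neighbouring organs were low in all libraries: 6 pancreatic genes held 534 counts over the 10 libraries and 6 gastric genes 177. Of 4 colon genes, the summed level was 1495 CPM in WB-KO replicate 2 and 147 to 271 CPM in the other libraries; *Car1* gave most of it, with 1172 CPM there and 0 counts in each WT library. Of 5 enteroendocrine markers, 3 were lower in WB-KO mice by edgeR, against 13.9% of all genes tested. Their summed level was 249 to 349 CPM in WT and 39.6 to 164 CPM in WB-KO libraries. Of 4 Paneth cell markers and 7 immune markers none passed the test, with overlap between the groups in both sums.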
